A study of Homo sapiens with 6 samples.

Results

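The 10 genes described here code for proteins that make, sense, carry or break down prostaglandin E2: PLA2G4A, PTGS1, PTGS2, PTGES, PTGES2, PTGES3, PTGER2, PTGER4, SLCO2A1 and HPGD. They were taken by name for these roles, with earlier results of these data known. All 10 were found among the 56303 genes of the count table, and all 10 were among the 21298 genes with enough counts to be tested.

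RNA sequencing was done on T24, an established cell line that came from human bladder cancer, whose genotype the labels give as wild type. The cells had been transfected for 48 h with a control siRNA (siNC, 3 samples) or with siRNA against FBXL6 (siFBXL6, 3 samples), so the comparison asks which RNA levels differ when the F-box gene FBXL6 is targeted. The labels number the samples of each group 1 to 3, and these were taken as replicate numbers, although the study also numbered its siRNAs against FBXL6. All 6 samples carry the same batch label, and the labels do not say whether the samples of a group came from separate cultures. The study mentions independent replicates, 3 or more, for its quantitative data in general, without naming this experiment. P-values therefore measure only the spread between these samples, which may be technical.

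The siNC libraries held 58646515, 60967902 and 56814946 counts, and the siFBXL6 libraries held 60968158, 60898556 and 60754015. Among counts above 0 and up to 20, between 70.8% and 71.9% in each library were even numbers. How the reads of a pair were counted is not given in the sources used here, so a low count may stand for fewer RNA fragments than its number. Levels are given as CPM, each gene's counts scaled to a common library total after TMM normalization, and as CPM per kb of exon where genes are compared with each other.

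FBXL6 itself had 362, 414 and 398 counts in the siNC libraries and 398, 344 and 350 in the siFBXL6 libraries. The groups overlapped, since siFBXL6 1 had the same count as siNC 3 and lay above siNC 1. The log2 fold change, here and below siFBXL6 over siNC, was −0.13 (SE 0.0875, adjusted p = 0.247, edgeR's quasi-likelihood test with Benjamini-Hochberg adjustment). The count therefore did not separate the groups, and they are called by their labels in all that follows. By qRT-PCR and Western blot, the study reports knockdown of FBXL6 in T24 cells with its siRNAs. Of the exon bases of FBXL6, 31.7% also belong to SLC52A2 on the opposite strand and 5.3% to GS1-393G12.13 on the same strand, and whether the counting used the strand is not given in the sources used here. ACTB, a reference gene, had a log2 fold change of 0.00 (SE 0.0274, edgeR adjusted p = 0.996). GAPDH, the other reference gene listed, was not stable: it had 11430, 11403 and 10622 counts in the siNC libraries and 39988, 39572 and 39376 in the siFBXL6 libraries, with a log2 fold change of 1.80 (SE 0.0302, edgeR adjusted p = 4.9e-31). An antisense gene shares 14.2% of the exon bases of GAPDH. Scaling did not rest on ACTB or GAPDH alone: TMM draws on the tested genes after leaving out those with extreme ratios or levels.

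Prostaglandins are short-lived lipid signals made from arachidonic acid, which a phospholipase frees from membranes and a cyclooxygenase turns into prostaglandin H2. Prostaglandin E synthases turn this into prostaglandin E2, which acts through receptors on the cell surface until a carrier takes it up and a dehydrogenase in the cytosol inactivates it. In many carcinomas, those of the bladder among them, the inducible cyclooxygenase PTGS2 is often raised, and prostaglandin E2 is known for promoting growth and inflammation.

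PTGS2 and PTGES, which act one after the other in synthesis, were higher in the libraries labelled siFBXL6, while SLCO2A1 and HPGD, the carrier and the enzyme of uptake and breakdown, were lower. PTGES2 was slightly lower. PLA2G4A, PTGS1, PTGES3, PTGER2 and PTGER4 did not pass the test. So 5 of the 10 genes were called at an adjusted p under 0.05 by edgeR, 2 of them higher and 3 lower. Over all genes tested, 8569 were called (40.2%), 4360 of them higher (20.5%) and 4209 lower (19.8%). This balance turned with the scaling, to 3930 higher and 4777 lower with library size alone and 3972 higher and 4718 lower with upper-quartile factors, while the 10 genes had 2 higher and 3 lower under both. The share of the 10 genes is near that of all genes, so the number called is not a result about these genes. SLCO2A1 alone was called with a change of at least 2-fold, beside 622 of all genes tested (2.92%). For 6 of the 10 genes the CPM ranges of both groups were apart, beside 10266 of all genes tested (48.2%). The median log2 fold change was 0.03 for the 10 genes and −0.01 for all genes tested.

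**Figure D1:**
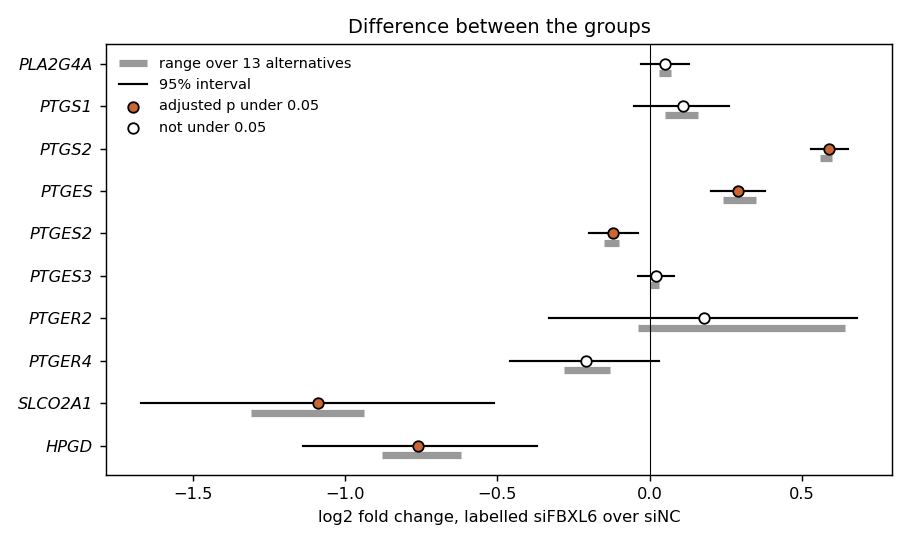
Log2 fold change of each of the 10 genes, libraries labelled siFBXL6 over siNC (3 against 3), with its 95% interval (black line) and the range of the estimate over 13 other ways of processing (grey bar). Filled points have an edgeR adjusted p under 0.05: PTGS2 and PTGES lie to the right of 0, and PTGES2, HPGD and SLCO2A1 to the left.

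The levels spanned a wide range. In the libraries labelled siNC, PTGES3 (49.6 ± 0.916 CPM per kb, SD, n = 3) and PTGS2 (49.5 ± 1.61) were the highest of the 10 and did not differ beyond their spread. PTGES followed at 21.0 ± 0.986 CPM per kb, then PTGES2 at 14.8 ± 0.54 and PLA2G4A at 12.3 ± 0.294. PTGS1 was at 1.41 ± 0.0731 CPM per kb, and PTGER4 at 0.863 ± 0.0677. The lowest levels per kb were those of PTGER2 (0.369 ± 0.178), HPGD (0.301 ± 0.0371) and SLCO2A1 (0.156 ± 0.0269), of which PTGER2 and HPGD did not differ beyond their spread. In the libraries labelled siFBXL6, PTGS2 stood above PTGES3, at 74.3 ± 1.2 against 50.3 ± 0.787 CPM per kb. The RNAs of the synthesis enzymes other than PTGS1 were thus present at far higher levels than those of the receptors, the carrier and the breakdown enzyme in both groups.

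**Figure D2:**
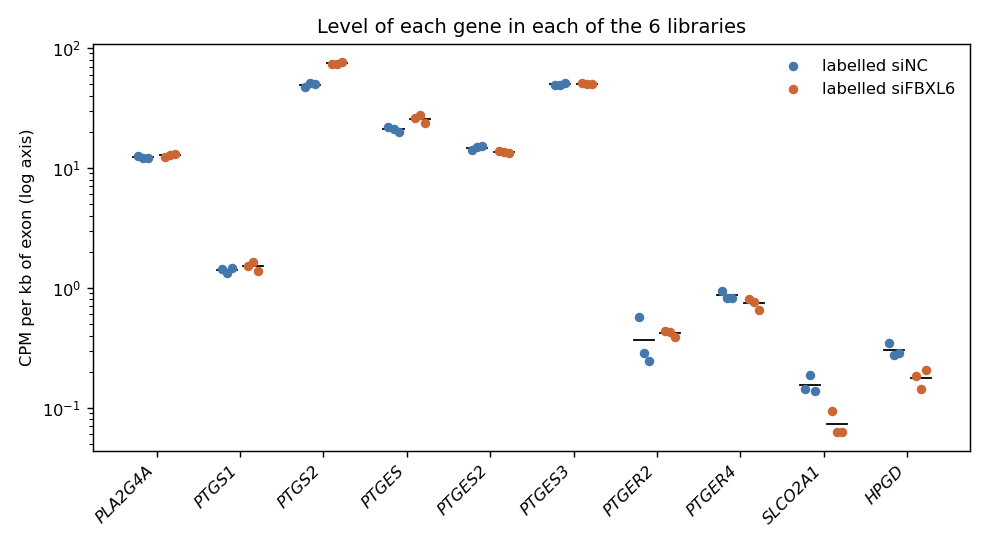
Level of each of the 10 genes in each of the 6 libraries, in CPM per kb of exon on a log axis, with points for libraries and a black line at each group's mean. PTGS2 and PTGES3 are at the top, and SLCO2A1, HPGD and PTGER2 at the bottom. The libraries of a group lie further apart there, except for PTGER2 in the siFBXL6 libraries.

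PLA2G4A, the cytosolic phospholipase that frees arachidonic acid, was at 36.3, 34.7 and 35.0 CPM in the siNC libraries and at 35.6, 36.8 and 37.4 in the siFBXL6 libraries. The groups overlapped, with siNC 1 inside the range of the siFBXL6 libraries. In the fit, its log2 fold change was 0.05 with a 95% interval of −0.03 to 0.13 (edgeR adjusted p = 0.373).

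PTGS2, the inducible cyclooxygenase, was at 250.9, 266 and 265 CPM in the siNC libraries and at 389.8, 386 and 399 in the siFBXL6 libraries. Every siFBXL6 library lay well above every siNC library. The mean was 260.6 ± 8.50 CPM in the siNC and 391.7 ± 6.33 CPM in the siFBXL6 libraries (SD, n = 3 each), 1.5-fold higher. Its log2 fold change was 0.59 (SE 0.0302, 95% interval 0.53 to 0.65, edgeR adjusted p = 2.42e-17), and the gene stood at rank 150 of the 21298 tested genes by p-value. With counts from 14671 to 24032, PTGS2 had the deepest coverage of the 10 genes, and its spread was above counting error in both groups.

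PTGS1, the constitutive cyclooxygenase, was at 8.26, 7.69 and 8.52 CPM in the siNC libraries and at 8.78, 9.47 and 8.05 in the siFBXL6 libraries. The groups overlapped, since siFBXL6 3 was below siNC 1 and siNC 3. For PTGS1 the log2 fold change was 0.11 (SE 0.0779, 95% interval −0.05 to 0.26, edgeR adjusted p = 0.308). The level of PTGS2 per kb was 33.4, 38.1 and 34.1 times that of PTGS1 in the siNC libraries and 48.8, 44.9 and 54.5 times in the siFBXL6 libraries. The ratio was higher in each siFBXL6 library than in any siNC library, and it is given as a description.

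To show what lies before the start of the cyclooxygenases and of PTGES, the 250 bases upstream of each start were taken from RefSeq (GRCh38.p14), whose table matched 9 of the 10 genes, all but SLCO2A1. Capitals mark matches on either strand to any of these motifs: TATA box TATAAA, CRE half-site CGTCA, C/EBP TTNNGCAA, AP-1 TGANTCA, E-box CACGTG, GC box GGGCGG, and the NF-kB consensus. No matches overlapped in these 3 windows. The PTGS2 window is chr1:186680424-186680673 on the minus strand, and its far end overlaps PACERR, an antisense gene of the locus. The PTGS1 window is chr9:122370283-122370532 on the plus strand, and the PTGES window is chr9:129753043-129753292 on the minus strand.
PTGS2: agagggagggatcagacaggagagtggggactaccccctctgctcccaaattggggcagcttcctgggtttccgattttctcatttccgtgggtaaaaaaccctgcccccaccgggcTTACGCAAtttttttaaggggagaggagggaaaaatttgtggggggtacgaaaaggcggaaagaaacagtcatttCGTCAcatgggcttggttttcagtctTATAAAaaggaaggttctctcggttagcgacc
PTGS1: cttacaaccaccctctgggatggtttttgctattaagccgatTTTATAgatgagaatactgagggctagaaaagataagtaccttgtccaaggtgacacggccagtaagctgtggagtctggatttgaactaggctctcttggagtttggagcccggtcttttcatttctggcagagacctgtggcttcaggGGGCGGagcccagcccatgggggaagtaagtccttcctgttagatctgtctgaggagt
PTGES: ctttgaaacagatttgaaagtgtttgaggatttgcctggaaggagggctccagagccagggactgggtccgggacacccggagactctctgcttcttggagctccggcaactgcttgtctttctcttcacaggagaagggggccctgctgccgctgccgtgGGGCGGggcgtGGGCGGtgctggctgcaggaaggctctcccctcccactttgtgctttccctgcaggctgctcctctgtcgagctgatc

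In the PTGS2 window the script found a TATA box 32 to 27 bases before the start, a CRE half-site 58 to 54 bases before it, and a C/EBP match 133 to 126 bases before it. Of 35116 promoter windows of this length, 10.7% held the TATA motif, 21.2% the CRE half-site and 9.05% the C/EBP motif. The PTGS2 window was the only one of the 9 with a C/EBP match. PTGS1 had a TATA match in the minus orientation 208 to 203 bases before the start and a GC box 58 to 53 bases before it. PTGES had 2 GC boxes, at 89 to 84 and 78 to 73 bases, a motif in 42.6% of all windows. The NF-kB consensus (9.96% of windows), AP-1 (6.57%) and E-box (6.34%) had no match in these 3 windows, which says only that these letters were not found there. The G and C content was 50.4% for PTGS2, 49.6% for PTGS1 and 61.2% for PTGES, beside a median of 58.0% over all windows. A match is a description of the sequence, and no factor's binding was measured.

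PTGES, the inducible microsomal prostaglandin E synthase, was at 41.7, 39.9 and 38.0 CPM in the siNC libraries and at 49.3, 52.2 and 44.9 in the siFBXL6 libraries. The groups did not overlap, and siFBXL6 3 was the closest to the siNC range. The mean rose from 39.8 ± 1.87 to 48.8 ± 3.68 CPM (SD, n = 3 each), or by 22.5% in the fit. Its log2 fold change was 0.29 (SE 0.0452, 95% interval 0.20 to 0.38, edgeR adjusted p = 2.31e-06).

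PTGES2, a second membrane-associated synthase, was at 43.0, 45.6 and 46.0 CPM in the siNC libraries and at 42.4, 40.9 and 40.8 in the siFBXL6 libraries. The groups did not overlap, but siNC 1 and siFBXL6 1 were close together. The log2 fold change was −0.12 (SE 0.0392, 95% interval −0.20 to −0.04, edgeR adjusted p = 0.0145). This call was lost without siNC 2 (−0.11, edgeR adjusted p = 0.0636) or siNC 3 (−0.1, edgeR adjusted p = 0.0651). It was also lost without siFBXL6 2 (−0.11, edgeR adjusted p = 0.0659) or siFBXL6 3 (−0.11, edgeR adjusted p = 0.0705). The log2 fold change thus stayed near −0.12 where the call was lost. Over all alternatives the adjusted p ran from 0.00228 to 0.0705. PTGES3, the cytosolic synthase that is also the HSP90 co-chaperone p23, lay between 166 and 174 CPM in all 6 libraries. Its groups overlapped, and its log2 fold change was 0.02 with a 95% interval of −0.04 to 0.08 (edgeR adjusted p = 0.66). The table also lists 5 pseudogenes of PTGES3, whose summed counts were at most 1.49% of the gene's own, so its count is uncertain by the reads these copies could share.

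The levels of the inducible and the other membrane synthase came apart between the groups. PTGES per kb was 1.55, 1.40 and 1.32 times PTGES2 in the siNC libraries and 1.86, 2.05 and 1.76 times in the siFBXL6 libraries. The lowest siFBXL6 ratio was above the highest siNC ratio, which is given as a description.

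PTGER2, one of the Gs-coupled receptors of prostaglandin E2, had 83, 44 and 35 counts in the siNC libraries and 65, 64 and 58 in the siFBXL6 libraries. The siNC group spread around the siFBXL6 group, with siNC 1 the highest of the 6 libraries and siNC 3 the lowest. The coefficient of variation of its CPM was 48.2% in the siNC libraries and 5.92% in the siFBXL6 libraries. In the fit it had a log2 fold change of 0.18 (SE 0.247, 95% interval −0.33 to 0.68, edgeR adjusted p = 0.617), an interval that leaves room for a change in either direction at this depth. The value depended on which siNC library was used: it was 0.64 without siNC 1 (edgeR adjusted p = 0.0463), 0.02 without siNC 2 and −0.04 without siNC 3, and over all alternatives the adjusted p ran from 0.0463 to 0.961.

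PTGER4, the other Gs-coupled receptor, had 218, 202 and 187 counts in the siNC libraries and 194, 183 and 157 in the siFBXL6 libraries. In CPM the groups did not overlap, at 3.73, 3.27 and 3.26 against 3.21, 3.03 and 2.60, but siNC 3 and siFBXL6 1 were nearly level. The log2 fold change was −0.21 (SE 0.121, 95% interval −0.46 to 0.03), which did not pass the test (edgeR adjusted p = 0.17). The 2 pseudogenes of PTGER4 in the table held up to 11.2% of the gene's own count, so its level is uncertain to that extent.

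SLCO2A1, the carrier that takes prostaglandins into the cell, had 44, 61 and 42 counts in the siNC libraries and 30, 20 and 20 in the siFBXL6 libraries. All siFBXL6 libraries were below all siNC libraries, with siFBXL6 1 the closest. The mean was 0.824 ± 0.142 CPM in the siNC libraries and 0.386 ± 0.095 in the siFBXL6 libraries (SD, n = 3 each). Its log2 fold change was −1.09 (SE 0.286, 95% interval −1.67 to −0.51, edgeR adjusted p = 0.00232), or 53.0% lower in the fit. The gene was called lower under all 13 alternatives, but the change was under 2-fold without siNC 2 (−0.94), siFBXL6 2 (−0.99) or siFBXL6 3 (−0.99). With so few counts its interval is wide.

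HPGD, the dehydrogenase that inactivates prostaglandins in the cytosol, had 111, 94 and 90 counts in the siNC libraries and 61, 48 and 69 in the siFBXL6 libraries. The lowest siNC library was above the highest siFBXL6 library. The mean fell from 1.66 ± 0.205 to 0.983 ± 0.176 CPM (SD, n = 3 each), or by 40.8% in the fit. The log2 fold change was −0.76 (SE 0.19, 95% interval −1.14 to −0.37, edgeR adjusted p = 0.00157), and it stayed between −0.88 and −0.62 under the 13 alternatives. PTGS2 per kb stood at 139, 184 and 177 times HPGD in the siNC libraries and at 406, 510.3 and 366 times in the siFBXL6 libraries. Every siFBXL6 library had a higher ratio than every siNC library. The ratio scattered widely within the groups, and HPGD had few counts.

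Spread within a group was mostly wider for the genes with few counts. For SLCO2A1 the coefficient of variation of the CPM was 17.2% in the siNC and 24.6% in the siFBXL6 libraries. Counting alone would give 14.3% and 20.7% if each count were an independent molecule, and 20.2% and 29.3% if each molecule were counted 2 times. For HPGD it was 12.4% and 18%, beside 10.1% and 13% or, counted 2 times, 14.3% and 18.4%. So the spread of SLCO2A1 and HPGD was above counting error on the first assumption and below it on the second. For PTGS2 it was 3.26% and 1.61%, beside 0.805% and 0.65% or 1.14% and 0.92%, above counting error on both. PTGER2 in the siNC libraries was far above it, at 48.2% beside 13.6% or 19.2%. In the siFBXL6 libraries PTGER2 was below it on both, at 5.92% beside 12.7% or 17.9%. An exact two-sided permutation test of 3 libraries against 3 cannot go below p = 0.1, the value it gave for PTGS2, PTGES, PTGES2, PTGER4, SLCO2A1 and HPGD.

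PTGS2 and PLA2G4A are neighbours on chromosome 1, where the deposited coordinates (GRCh38) place them at 186671791 to 186680427 on the minus strand and 186828953 to 186988981 on the plus strand, 149 kb apart. None of the 10 genes shares exon bases with another gene of the table. Within 500 kb of this pair the table lists 19 genes, the pair included, beside 12 names that recur at several places and were left out. Of the 9 tested, 2 were called, beside 40.2% of all genes tested. PTGS2 was higher and HMCN1, which codes for the matrix protein hemicentin, was lower. The mean of HMCN1 went from 48.5 to 26.9 CPM (log2 fold change −0.85, SE 0.0441, edgeR adjusted p = 3.37e-17). PACERR, which starts beside PTGS2 on the opposite strand, was at 0.283 and 0.331 CPM and did not pass the test (log2 fold change 0.23, SE 0.368, edgeR adjusted p = 0.666). PRG4, TPR, C1orf27, OCLM, RP11-295K2.3 and PLA2G4A were not called. For TPR this held except with library size as the only scaling, where the log2 fold change was −0.06 (edgeR adjusted p = 0.0413). The 95% interval of PLA2G4A (−0.03 to 0.13) lay below that of PTGS2 (0.53 to 0.65).

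**Figure D3:**
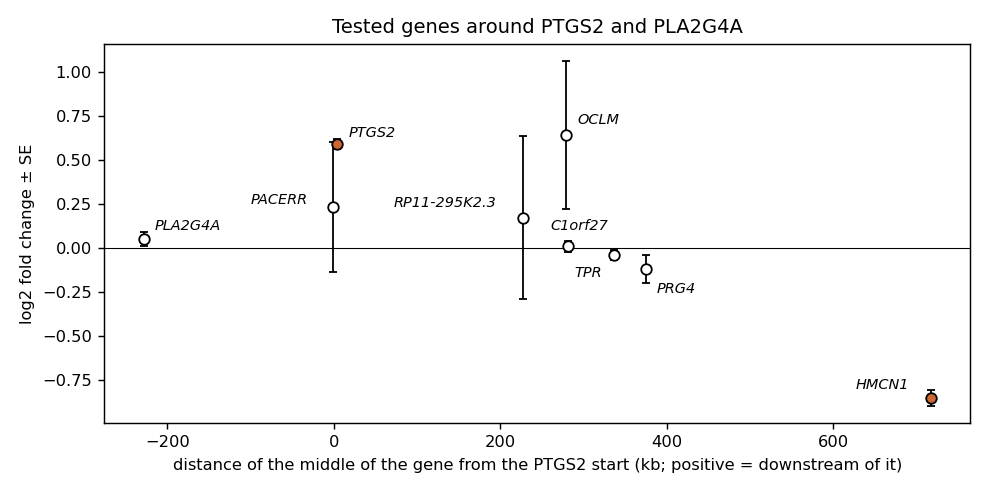
Log2 fold change (points, with SE bars) of the 9 tested genes near PTGS2 and PLA2G4A, against the distance in kb of each gene's middle from the PTGS2 start. Filled points have an edgeR adjusted p under 0.05: PTGS2 is higher, HMCN1 is lower, and the genes between and around them lie near 0 or have wide bars.

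Other genes of the pathway were listed by role, with earlier results of these data known. Of 58 such genes, 43 were tested and 20 were called, 9 higher and 11 lower, with a median log2 fold change of −0.05. This share (46.5%) is also near that of all genes. Among 9 tested enzymes that act beside or after the prostaglandin E synthases, 5 were called (55.6%, beside 40.2% of all genes tested), 1 higher and 4 lower. CBR3, a carbonyl reductase, was higher (0.27, SE 0.0798, edgeR adjusted p = 0.00685). Lower were PTGR1, a prostaglandin reductase (−0.20), PRXL2B, a prostamide synthase listed as FAM213B (−0.33), CBR1, the carbonyl reductase that acts on prostaglandin E2 (−0.16), and AKR1B1, an aldose reductase that can form prostaglandin F2 alpha (−0.12). The AKR1B1 call was lost without siFBXL6 2 (edgeR adjusted p = 0.0566). CBR3 shares 42.2% of its exon bases with an antisense gene, PTGR1 24.1% with a gene on its own strand CBR1 18.9% with an antisense gene and PRXL2B 13.4% with MMEL1 on the other strand, so these values are uncertain. PTGDS, HPGDS and PTGIS, the synthases of prostaglandins D2 and I2, had at most 8 counts in any library and were not tested.

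Of 6 tested receptors and carriers beyond the 10 genes, ABCC4 alone was called (16.7%, beside 40.2% of all genes tested). This exporter of prostaglandins was higher by 0.17 on the log2 scale (SE 0.0488, edgeR adjusted p = 0.00489), a call that was lost without siFBXL6 2 (0.14, edgeR adjusted p = 0.0521). PTGER1 and PTGER3, the other receptors of prostaglandin E2, had at most 8 counts in any library and were not tested. So PTGER4 and PTGER2 were the receptors of prostaglandin E2 with enough counts for the comparison.

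Upstream of the cyclooxygenases, 8 of 16 tested phospholipases and genes of arachidonate supply were called (50%, beside 40.2% of all genes tested), 4 in each direction. PLA2G4D, a cytosolic phospholipase of the same family as PLA2G4A, had 88, 110 and 90 counts in the siNC libraries and 289, 293 and 304 in the siFBXL6 libraries. Its groups lay far apart, with a log2 fold change of 1.59 (SE 0.122, edgeR adjusted p = 8.03e-13). PLA2G4C, another of that family, was higher by 1.02 (SE 0.115, edgeR adjusted p = 6.46e-09), and MGLL, a lipase that can also supply arachidonic acid, by 0.68 (SE 0.0697, edgeR adjusted p = 6.59e-10). ANXA1, a known inhibitor of phospholipase A2, was higher as well (0.30, SE 0.0277, edgeR adjusted p = 1.07e-10). The phospholipases A2 did not all move the same way: PLAAT3, listed as PLA2G16, was lower (−0.52, SE 0.0589, edgeR adjusted p = 6.78e-09). Its mean was 5.80 CPM per kb in the siNC and 4.05 in the siFBXL6 libraries. The desaturases of arachidonic acid synthesis were both lower, FADS2 by a log2 fold change of −0.62 (SE 0.0412, edgeR adjusted p = 1.84e-14) and FADS1 by −0.41 (SE 0.0298, edgeR adjusted p = 1.85e-13). FADS1 shares 4.79% of its exon bases with other genes, FADS2 4.89% and PLA2G4C 4.93%. Per kb, PLA2G4A stayed far above these relatives, at 12.7 ± 0.319 CPM per kb in the siFBXL6 libraries against 0.88 ± 0.0441 for PLA2G4C and 0.952 ± 0.0267 for PLA2G4D.

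The lipoxygenase branch draws on the same arachidonic acid to make leukotrienes and related lipids. Of its 12 tested genes 6 were called (50%, beside 40.2% of all genes tested), 3 higher and 3 lower. ALOXE3, an epidermal lipoxygenase (1.33, SE 0.18, edgeR adjusted p = 2.11e-07), and ALOX5AP, the partner protein of 5-lipoxygenase (0.72, SE 0.106, edgeR adjusted p = 1.01e-06), were higher, as was LTB4R, a leukotriene B4 receptor (0.32, SE 0.109, edgeR adjusted p = 0.0181). EPHX1, an epoxide hydrolase, was lower (−0.17, SE 0.0431, edgeR adjusted p = 0.0013). LTA4H, which forms leukotriene B4 (−0.11, edgeR adjusted p = 0.0111), and ALOX5, the 5-lipoxygenase (−0.24, edgeR adjusted p = 0.0323), were lower by less secure margins. Without siFBXL6 2 the LTA4H call was lost (edgeR adjusted p = 0.104). The ALOX5 call was lost with DESeq2 (adjusted p = 0.0699) and with edgeR without siNC 3, siFBXL6 1 or siFBXL6 3 (0.172, 0.18 and 0.173). LTB4R shares 7.95% of its exon bases with LTB4R2, and LTA4H 9.56% with antisense genes. The call of LTB4R was lost without siNC 2, siNC 3, siFBXL6 1 or siFBXL6 3 (edgeR adjusted p = 0.0882, 0.0643, 0.0676 and 0.0745).

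**Figure D4:**
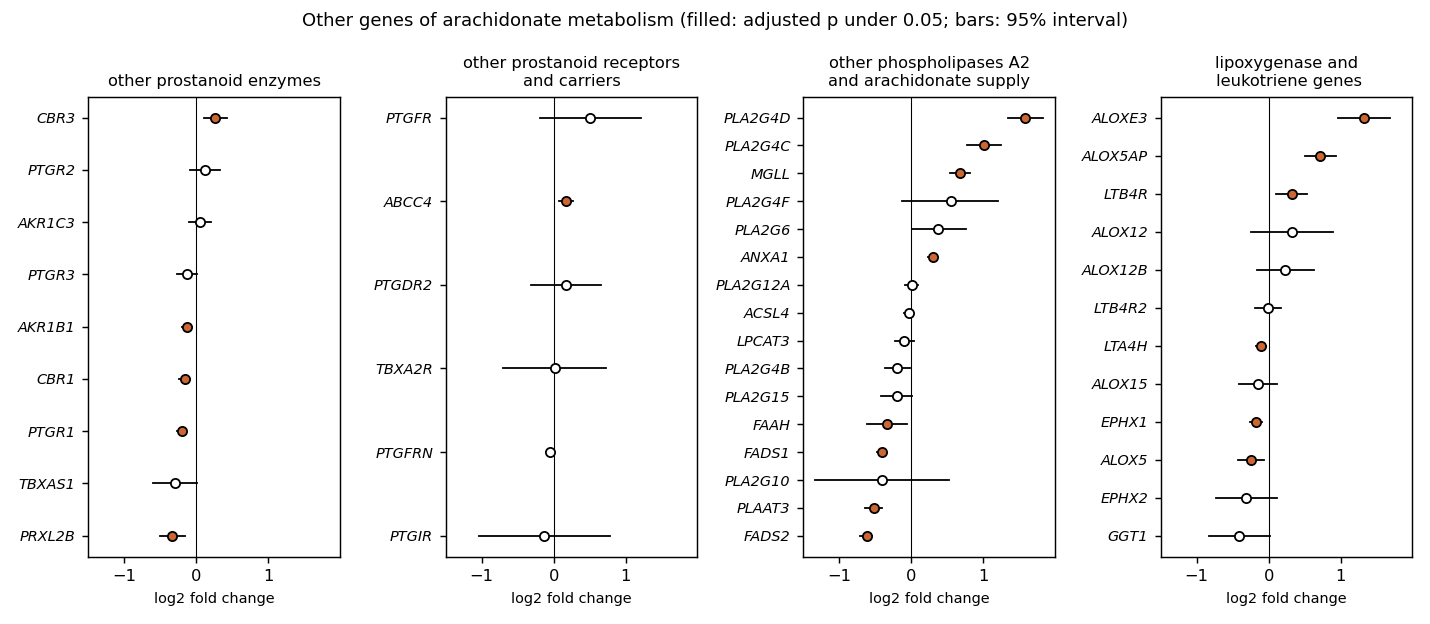
Log2 fold change with its 95% interval for the 43 tested genes of 4 lists around the prostaglandin E2 pathway, libraries labelled siFBXL6 over siNC. Filled points have an edgeR adjusted p under 0.05; PLA2G4D, ALOXE3 and PLA2G4C reach furthest to the right, and FADS2 furthest to the left among the filled points.

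The list of genes known to act on PTGS2 transcription or on its mRNA, not always on the mRNA level, had 18 tested genes. Of these, 11 were called (61.1%, beside 40.2% of all genes tested), 7 higher and 4 lower. IL1B, a cytokine that induces PTGS2, rose most (1.47, SE 0.0296, edgeR adjusted p = 9.27e-29), and its relative IL1A rose by 0.51 (SE 0.0307, edgeR adjusted p = 1.82e-15). The transcription factor genes NFKB1 (0.42, SE 0.037) and JUN (0.32, SE 0.0293) were also higher, with edgeR adjusted p of 1.83e-11 and 6.35e-11. The RNA-binding protein genes HNRNPD (−0.33, SE 0.026) and TIA1 (−0.26, SE 0.0377) were lower, with edgeR adjusted p of 1.67e-12 and 6.54e-07. Other RNA-binding protein genes of the list went both ways. ZFP36 was higher (0.36, SE 0.086, edgeR adjusted p = 0.000808). Its relative ZFP36L2 (−0.30, SE 0.0559, edgeR adjusted p = 4.16e-05) and KHSRP (−0.09, SE 0.0301, edgeR adjusted p = 0.0125) were lower. ELAVL1 did not pass the test (−0.06, SE 0.037, edgeR adjusted p = 0.228). The part of the genes of this list in the level of PTGS2 was not tested.

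Receptors PTGER2 and PTGER4 raise cyclic AMP. Of 17 tested genes that respond to it or take part in that response, 9 were called (52.9%, beside 40.2% of all genes tested), 6 higher and 3 lower. Nothing particular to either list is read from these counts. AREG, a growth factor gene (0.49, SE 0.0291, edgeR adjusted p = 1.34e-15), PDE4B, a phosphodiesterase (1.2, SE 0.107, edgeR adjusted p = 2.69e-11), and DUSP1, a phosphatase of MAP kinases (0.63, SE 0.0889, edgeR adjusted p = 4.54e-07), were among the higher. CRTC2, a coactivator (0.52, SE 0.0681), and PDE4A (0.53, SE 0.0917) were higher too, with edgeR adjusted p of 1.1e-07 and 1.5e-05. PPARGC1A, another coactivator, was lower (−0.67, SE 0.112, edgeR adjusted p = 8.64e-06). The NR4A1, NR4A2, NR4A3 and SIK1 genes of that list, named after their values were seen, did not pass the test. Prostaglandin E2 and cyclic AMP were not measured in the data used here.

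Epithelial marker genes were abundant in both groups. The summed level of 6 epithelial genes was 3414, 3298 and 3399 CPM in the siNC libraries and 3090.0, 3070.0 and 3079 in the siFBXL6 libraries. KRT7 was the highest of them in CPM, and KRT19 the highest per kb. Of the 6 genes, 5 were called (83.3%, beside 40.2% of all genes tested). KRT8, KRT19, EPCAM and KRT7 were lower and CDH1 higher. The KRT7 call was lost without siFBXL6 1 or siFBXL6 3 (edgeR adjusted p = 0.074 and 0.107). The summed level of 7 immune genes was 7.73, 8.48 and 8.08 CPM against 20.8, 18.8 and 20.2. Most of it was CD68, at 6.69 and 18.8 CPM (log2 fold change 1.49, SE 0.0658, edgeR adjusted p = 4.65e-19), a gene that shares 85.8% of its exon bases with others, so its count is uncertain. The other immune genes were low: FCER1A was at 0 in all 6 libraries, CD3E had no more than 4 counts and ITGAM no more than 6. PTPRC had 14 to 43 counts, CD14 18 to 47 and LYZ 8 to 22, counts in or below the range of SLCO2A1, and none of these 3 passed the test (edgeR adjusted p = 0.158, 0.901 and 0.368).

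The 4 endothelial genes summed to 2.84, 2.52 and 2.91 CPM in the siNC libraries and to 3.87, 3.24 and 4.07 in the siFBXL6 libraries. In CPM, KDR was the highest on average over all 6 libraries, and PECAM1 in the siFBXL6 libraries (1.39 against 1.15 CPM). Per kb, the 2 did not differ beyond their spread in the siFBXL6 libraries, with KDR at 0.183 ± 0.0506 and PECAM1 at 0.179 ± 0.0471 CPM per kb. PECAM1 was called higher among them (1.28, SE 0.238, edgeR adjusted p = 4.4e-05), while CDH5 had at most 12 counts in any library. The 5 fibroblast genes summed to 37.3, 39.4 and 36.6 CPM against 34.3, 34.1 and 33.0, most of it COL1A1, which was slightly lower (−0.15, SE 0.0425, edgeR adjusted p = 0.00427). Of tested markers, 25% of the immune, 25% of the endothelial and 20% of the fibroblast genes were called, beside 40.2% of all genes. The part of these markers in the levels of the 10 genes was not tested, and in such bulk samples fewer cells with an RNA cannot be told apart from less of it per cell.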

How the data were processed

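The authors deposited 1 table of gene counts for the 6 libraries, not normalized, made with a stranded mRNA kit. The study's methods name Trimmomatic and HISAT2 on GRCh38, while the submitters' processing notes name fastp 0.23.0 and STAR. Both name featureCounts and Subread 1.5.1. The annotation release, the strand setting, the treatment of reads on several genes and the counting of read pairs are not given in the sources used here. Of the gene names that GENCODE 44 also holds, 99.8% overlapped its gene of that name, so the build fits.

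Genes were filtered with filterByExpr, normalized with TMM and tested across all 21298 remaining genes with edgeR 4.0.16 (R 4.3.3) by the quasi-likelihood test, condition being the only term, with Benjamini-Hochberg adjustment. DESeq2 1.42.0 was an alternative. A gene was called at an adjusted p under 0.05, and as changed 2-fold or more where its log2 fold change was also 1 or larger in size. Library totals ran from 56814946 to 60968158 counts. Values per kb use the deposited exon length. Libraries of a group differed by more than sampling noise if each count is an independent molecule (chi-square per degree of freedom 2.86 to 6.29). If each molecule was counted 2 times, sampling noise alone would give a larger value, and the excess would be smaller. The steps were tested on simulated data. Positions, exon overlaps and motifs were computed in Python 3.11.15 with pandas 2.3.3.

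The genes named are the 10 members, FBXL6, ACTB, GAPDH where scaling is in question, and the tested genes within 500 kb of PTGS2 or PLA2G4A. Up to 6 called genes with the smallest adjusted p were named from each further list. These lists are other pathway genes, regulators, genes of the cyclic AMP response and cell type markers. The genes, the lists and this rule were chosen with earlier results of these data known. Some genes of these lists are named outside the rule, chosen after their values were seen. Their values were not recomputed under the alternatives. The cell type marker sums leave out 1 gene of their lists, which is not reported here.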

Additional observations from a re-analysis of the deposited data

How the results depend on the processing

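The log2 fold changes of the 10 genes were recomputed under 13 alternatives: DESeq2, upper-quartile factors, library size alone, no filter on low counts, at least 10 counts in every library, a replicate block, each library left out in turn, and counts halved and rounded up. The last was chosen after seeing the data, because most low counts are even. Of 130 values, 124 kept their direction and their side of the threshold at 2 decimals. These include PTGES3 at 0.00 with upper-quartile factors and with library size alone, which has no sign to keep. The 4 that lost the call are those of PTGES2, and PTGER2 gained one (0.64 without siNC 1) and changed sign without siNC 3 (−0.04). PTGS2, PTGES, HPGD and SLCO2A1 were called in the same direction under all 13. The number of the 10 genes called ran from 4 to 6 when a library was left out, and was 5 with halved counts, where 8550 of all genes were called. The number called at least 2-fold ran from 0 to 1 with a library left out. Over all genes, 376 were called at least 2-fold with at least 10 counts in every library, against 622, as fewer genes were then tested. Of 621 values of other named genes, 603 kept both at 2 decimals, 13 lost the call, 1 gained it (TPR, library size alone) and 4 changed sign, all of genes not called: C1orf27 with library size alone (−0.01) and RP11-295K2.3 with a library left out (from −0.14 to 0.95). ACTB, at 0.00, has no sign to change and ran from −0.02 to 0.02. C1orf27, at 0.00 with upper-quartile factors and without siNC 2, was counted there as kept. With the replicate block 5 of the 10 genes and 8408 of all genes were called. Same-numbered libraries did not deviate together over all genes tested (r between −0.04 and 0.01). Such values include counting noise, so they cannot decide whether same-numbered samples were handled together. The causes were not tested. SLCO2A1, HPGD, PTGER2 and PTGER4 had the fewest counts, at most 218 in any library.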
